A study of Mus musculus with 30 samples.

Results

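Mediator is the multi-subunit coactivator that carries signals from transcription factors bound at enhancers and promoters to RNA polymerase II. Its core is built from a head and a middle module that contact the polymerase, a tail module that many activators bind, and the scaffold subunit MED14 that joins them. A separable kinase module, made of CDK8 or CDK19 with cyclin C, MED12 or MED12L and MED13 or MED13L, docks on the core and controls whether it can engage the polymerase. The genes of this complex were taken by symbol, as every gene named Med with a number and an optional l, plus Cdk8, Cdk19 and Ccnc. That rule found 33 genes among 49585 rows of the expression table, with 11 in the head, 9 in the middle, 1 as scaffold, 5 in the tail and 7 in the kinase module. All 33 passed the filter on low values, a mean FPKM of 1 or more, and all 33 matched a RefSeq protein-coding gene by symbol.

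RNA was sequenced from 8-cell embryos of BDF1 x BDF1 matings cultured in KSOM medium, in 2 libraries after Yy1 knockdown with the siRNA numbered 1 and in 2 libraries after control knockdown. YY1 is a zinc finger transcription factor, and the series title ties it to nucleosome remodeling in early mouse development. The comparison asks which transcripts differ in 8-cell embryos when Yy1 is knocked down, and it is read here for Mediator. The labels state neither how many embryos went into a library nor whether replicates came from separate collections, so the p-values rest on a spread between libraries that may be technical only. The other 26 samples of the series, which hold chromatin assays, were not analysed here.

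Yy1 itself measured 5.89 and 7.98 FPKM after its knockdown, against 77.7 and 71.2 FPKM in the control libraries. FPKM counts sequenced fragments, scaled to the length of the gene and the depth of the library, so levels of different genes can be set side by side. Behind these values stood 34074291 and 29302489 fragments in the Yy1 knockdown libraries and 34429515 and 31405476 fragments in the control libraries. Of 12 markers of cleavage-stage embryos 11 were above the filter, led by Dppa3 at a mean of 2068 FPKM, while Sox2 was at most 0.19 FPKM. Of 18 cumulus and granulosa cell markers 2 were above it and 6 at 0, with a summed level of 142.5 and 134.5 FPKM in Yy1 knockdown and 144.3 and 171.9 FPKM in control libraries. Nearly all of that sum was Gja1, a gap junction gene at a mean of 140.1 FPKM. Of 15 sperm markers 1 was above the filter and 8 were at 0, with sums of 3.3 and 6.93 FPKM in Yy1 knockdown and 4.25 and 5.32 FPKM in control libraries. Of 10 blood cell markers 0 were above the filter and 4 were at 0, with sums of 1.38 and 2.84 FPKM in Yy1 knockdown and 1.59 and 2.52 FPKM in control libraries. The part of these transcripts in the results below was not tested.

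Levels of the 33 Mediator transcripts spanned a 35.1-fold range by their mean over the 4 libraries. Med29 (54.9 FPKM), Med4 (52.2 FPKM) and Med6 (47.2 FPKM) were the most abundant and lay between the 87.5th and the 88.9th percentile of all rows tested. Med19 (24.8 FPKM) and Med14 (22.3 FPKM) followed. Med7, which encodes a core subunit of the middle module, was the lowest at 1.57 FPKM, below Med10 at 2.57 FPKM. The median member stood at 10.1 FPKM, against 6.06 FPKM for the median row tested. Recovered fragments per member and library ran from 50 for Med10 to 7790 for Med14, and 31 of the 33 had at least 100 fragments in every library. Genes whose products sit in the same module were thus not at the same level per length, the head alone running from Med18 at 3.41 FPKM to Med29 at 54.9 FPKM.

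**Figure D1:**
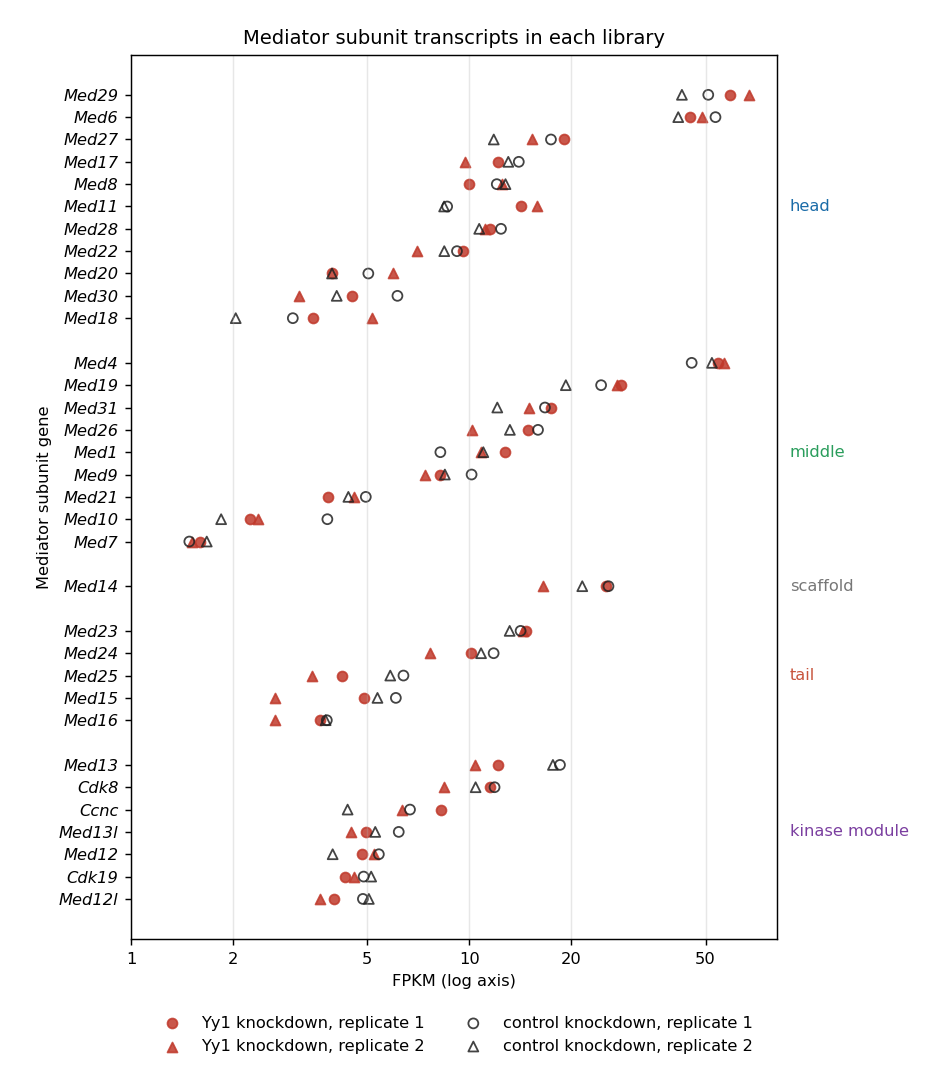
FPKM of each of the 33 Mediator genes (rows, grouped by module and ordered by mean level) in the 2 Yy1 knockdown libraries (filled) and the 2 control libraries (open), on a log axis. Med29, Med4 and Med6 stand apart at the top of their modules, and the filled symbols lie to the right of the open ones for Med11 and to the left of them for Med13 and Med25.

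No Mediator gene passed the test for a difference between Yy1 knockdown and control embryos. limma on log2(FPKM + 1), with Benjamini-Hochberg adjustment over 12120 rows, called 0 of the 33, and it called 0% of all rows. The lowest adjusted p among the members was 0.462, for Med11. At an unadjusted p under 0.05 the fit took 4 members (12.1%), against 8.9% of all rows tested. They were Med11 and Med29 on the higher side, where 4.22% of all rows lay, and Med13 and Med25 on the lower side, where 4.69% lay. limma-voom on the recovered fragments, run as an alternative, called 0 members and 0.107% of all rows. By group mean 12 members were higher in Yy1 knockdown and 21 lower, so that 63.6% were lower, whereas 53.2% of all rows were higher and 46.8% lower. The median log2 fold change was -0.13 over the members and 0.024 over all rows. Log2 fold changes of the members lay between -0.64 and 0.75, while that of Yy1 was -3.26 (limma adjusted p = 0.0556). A 95% interval within -1 and 1 was found for 27 of the 33 members and for 70.4% of all rows. Such an interval leaves out a doubling or a halving of FPKM + 1. For low genes a doubling or a halving of FPKM itself is smaller on this scale and may lie inside the interval. In bulk embryos, fewer cells of a type and less RNA per cell cannot be told apart.

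**Figure D2:**
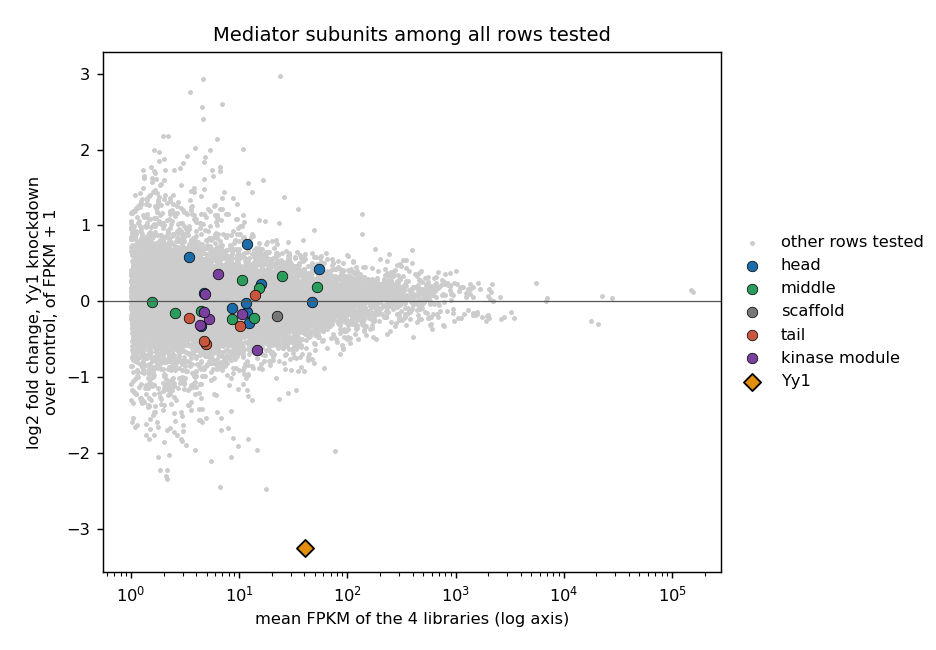
Log2 fold change of FPKM + 1, Yy1 knockdown over control (vertical axis), against the mean FPKM of the 4 libraries on a log axis, for all 12120 rows tested (grey), the Mediator genes by module (coloured) and Yy1 (diamond). The members lie between -0.64 and 0.75, inside the cloud of rows of like level, and Yy1 lies at -3.26.

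Shifts of the members between replicates of a group were of the size of the shift between groups. In 27 of 33 members control replicate 2 was below control replicate 1, with a median log2 difference of -0.17, whereas 43.6% of all rows were lower there and their median was 0.05. In 22 of 33 members Yy1 knockdown replicate 2 was below Yy1 knockdown replicate 1, with a median of -0.12, against 55.1% of all rows and a median of -0.044. The 33 members summed to 448.9 and 428.3 FPKM in the Yy1 knockdown libraries and to 450.4 and 396.1 FPKM in the control libraries, so the sums of the groups overlapped. Set against the mean of both controls, 17 of 33 members were lower in Yy1 knockdown replicate 1 (median -0.0017) and 19 of 33 in replicate 2 (median -0.043). Without Yy1 knockdown replicate 2 the median log2 fold change of the members, -0.13 with all libraries, was -0.0017.

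**Figure D3:**
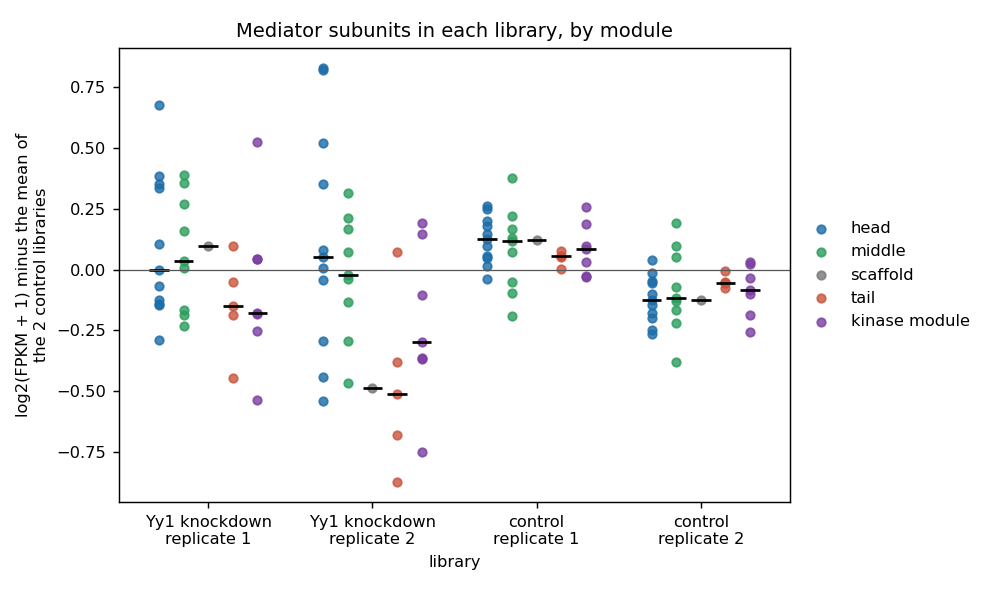
log2(FPKM + 1) of each Mediator gene minus its mean in the 2 control libraries (vertical axis) in each library (horizontal axis), coloured by module, with black bars at the module medians. The 2 control libraries mirror each other by construction, and the tail module has its lowest median, -0.51, in Yy1 knockdown replicate 2.

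In 6 members both Yy1 knockdown libraries exceeded both controls, in 10 both were lower, and in the remaining 17 the groups overlapped. Such separation is common in this comparison, since 21.8% of all rows were separated on the higher side and 18.9% on the lower side. Among the members the shares were 18.2% higher and 30.3% lower, and together 48.5% of members against 40.7% of all rows. The 6 on the higher side were Med11, Med29, Med18, Med19, Med4 and Med23. The 10 on the lower side were Med13, Med25, Med15, Med24, Med17, Med12l, Med9, Med13l, Med16 and Cdk19.

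**Figure D4:**
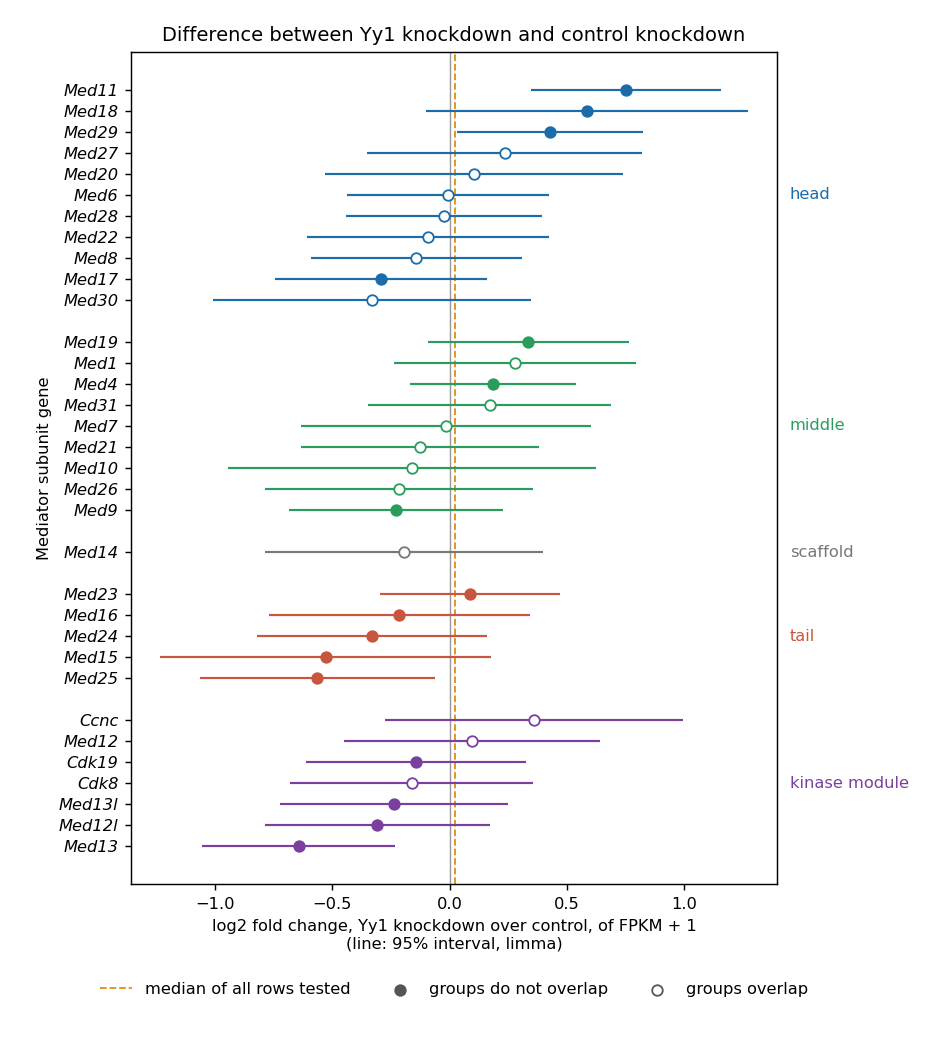
Log2 fold change of FPKM + 1, Yy1 knockdown over control (horizontal axis), with its 95% interval from limma for each of the 33 Mediator genes (rows, by module). Filled points are the 16 genes whose groups do not overlap, the dashed line is the median of all rows tested (0.024), and the intervals of Med11, Med29, Med13 and Med25 leave out 0.

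The start regions of the 4 members with an unadjusted p under 0.05 are shown because the factor that was knocked down binds DNA at a known motif. Each stretch runs from 250 bases before to 50 bases after 1 RefSeq transcript start site on the strand of the gene, build GRCm38.p6, and capitals mark the motif AANATGGC, one form of the YY1 motif. The windows are chr11:70451668-70451967 on the plus strand for Med11, chr7:28392641-28392940 on the minus strand for Med29, chr11:86357547-86357846 on the minus strand for Med13 and chr7:44892375-44892674 on the minus strand for Med25.
Med11: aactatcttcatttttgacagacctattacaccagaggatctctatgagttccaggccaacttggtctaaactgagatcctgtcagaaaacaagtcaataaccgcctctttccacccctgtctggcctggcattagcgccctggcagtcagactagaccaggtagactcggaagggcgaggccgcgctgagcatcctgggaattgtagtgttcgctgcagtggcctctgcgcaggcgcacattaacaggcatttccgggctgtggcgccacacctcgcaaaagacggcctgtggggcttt
Med29: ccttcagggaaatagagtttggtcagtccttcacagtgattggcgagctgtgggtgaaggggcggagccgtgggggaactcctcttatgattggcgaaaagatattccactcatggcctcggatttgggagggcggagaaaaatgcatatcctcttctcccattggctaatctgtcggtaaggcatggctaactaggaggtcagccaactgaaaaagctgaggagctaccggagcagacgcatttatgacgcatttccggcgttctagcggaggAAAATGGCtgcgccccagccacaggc
Med13: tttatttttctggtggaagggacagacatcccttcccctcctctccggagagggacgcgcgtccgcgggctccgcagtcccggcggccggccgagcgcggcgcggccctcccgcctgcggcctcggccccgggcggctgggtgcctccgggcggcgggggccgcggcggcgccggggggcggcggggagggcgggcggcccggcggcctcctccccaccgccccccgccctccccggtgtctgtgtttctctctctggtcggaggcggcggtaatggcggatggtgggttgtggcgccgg
Med25: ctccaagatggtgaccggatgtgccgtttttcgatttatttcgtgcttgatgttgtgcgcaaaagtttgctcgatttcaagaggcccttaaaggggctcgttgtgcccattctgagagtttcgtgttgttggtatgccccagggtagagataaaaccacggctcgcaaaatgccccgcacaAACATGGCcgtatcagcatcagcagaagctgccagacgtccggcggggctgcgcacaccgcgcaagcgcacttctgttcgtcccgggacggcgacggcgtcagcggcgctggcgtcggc
Med29 held the motif 24 bases after the start site of its window and Med25 held it 69 bases before that of its own, both reading along the gene, and these 2 genes differed in opposite directions. The start site used for Med25 lies 281 bases inside the outer end of the gene, while those of Med11, Med29 and Med13 are at that end. The windows of Med11 and Med13, the members with the lowest p on either side, did not contain these letters. RefSeq start regions were at hand for 28 members, 4 of them with more than 1 region and then counted if any region matched, and 5 of these (17.9%) held AANATGGC on either strand, namely Med21, Med25, Med27, Med29 and Med31. The same letters stood in 6.96% of 27025 genes with a start region and in 11.6% of the 6866 such genes whose transcripts were tested here. Their log2 fold changes were 0.43 for Med29, 0.23 for Med27, 0.17 for Med31, -0.13 for Med21 and -0.56 for Med25, so carriers of the letters lay on both sides. The shorter motif CCATNTT, which every AANATGGC contains on its other strand, stood in 8 of the 28 (28.6%), against 18.2% of all genes with a start region and 18.9% of those tested. Besides those 5 genes it was found in Med14, Med19 and Med22. A match describes the sequence and is not a binding site.

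In the head module, which holds the polymerase near the promoter, 5 of 11 genes were higher by group mean and 6 lower, with a median log2 fold change of -0.0065. Med11, whose product pairs with that of Med22 in the yeast head, had the largest difference of all members. Its level was 14.2 and 15.9 FPKM in Yy1 knockdown, against 8.61 and 8.43 FPKM in control libraries. Both knockdown libraries were above both controls, and replicates of a group lay close to each other. Med11 averaged 15.1 ± 1.18 FPKM in Yy1 knockdown and 8.52 ± 0.124 FPKM in control embryos (SD, n = 2 each), 1.77-fold higher. The log2 fold change of Med11 was 0.75 (standard error 0.16), with a 95% interval from 0.35 to 1.16 (limma unadjusted p = 0.00443, adjusted p = 0.462). By unadjusted p it was row 111 of 12120. Med11 lies on chromosome 11 from 70451918 to 70453732, its recovered fragments were 507 and 487 in Yy1 knockdown and 310 and 277 in control libraries, and its log2 fold change stayed between 0.68 and 0.83 when any library was left out. Its partner Med22 did not show the same pattern, with 9.57 and 7.02 FPKM in Yy1 knockdown and 9.2 and 8.44 FPKM in control libraries.

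Med29, which encodes a head subunit of animal Mediator, stood at 59.1 and 67.2 FPKM in Yy1 knockdown and at 50.9 and 42.6 FPKM in control libraries. Both knockdown libraries were above both controls, and the spread within each group was wide. Its mean was 63.1 ± 5.75 FPKM in Yy1 knockdown and 46.8 ± 5.92 FPKM in control embryos (SD, n = 2 each), with a log2 fold change of 0.43 and a 95% interval of 0.03 to 0.82 (limma adjusted p = 0.547). Med18 and Med20 encode partners that form the movable jaw of the yeast head. Med18 had 3.45 and 5.16 FPKM in Yy1 knockdown, against 3.01 and 2.04 FPKM in control libraries, on 128 to 302 fragments, and its groups did not overlap (log2 fold change 0.58, and 0.35 without Yy1 knockdown replicate 2, limma adjusted p = 0.606). Med20 had 3.93 and 5.96 FPKM in Yy1 knockdown, against 5.03 and 3.93 FPKM in control libraries, and its groups overlapped. The jaw pair thus had 1 separated and 1 overlapping member, where 40.7% of all rows were separated.

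Med17, the central scaffold of the head, was lower in both knockdown libraries, at 12.2 and 9.71 FPKM, against 14 and 13.1 FPKM in control libraries (log2 fold change -0.29, and -0.14 without Yy1 knockdown replicate 2, limma adjusted p = 0.674). Med6, a subunit conserved from yeast to mammals, showed no separation, at 45 and 48.9 FPKM in Yy1 knockdown and 53.5 and 41.5 FPKM in control libraries, and its 95% interval ran from -0.44 to 0.42. Med8 had 9.99 and 12.5 FPKM in Yy1 knockdown and 12.1 and 12.8 FPKM in control libraries. Knockdown replicate 2 of Med8 lay between the controls. The metazoan subunit genes Med27, Med28 and Med30 overlapped between groups as well. Med27 had 19.1 and 15.3 FPKM in Yy1 knockdown, against 17.5 and 11.8 FPKM in control libraries. Med28 had 11.5 and 11.2 FPKM in Yy1 knockdown, against 12.4 and 10.7 FPKM in control libraries. Med30, read from 80 to 184 fragments, had 4.52 and 3.13 FPKM in Yy1 knockdown, against 6.14 and 4.06 FPKM in control libraries. For Med27 and Med30 the replicates of a group differed by more than the group means did.

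In the middle module, which links head and tail to the kinase module, 4 of 9 genes were higher by group mean and 5 lower, with a median log2 fold change of -0.015 and 0 at an unadjusted p under 0.05. Med1, whose product binds nuclear receptors, had 12.8 and 10.8 FPKM in Yy1 knockdown, against 8.22 and 11 FPKM in control libraries, and the groups overlapped. Med19, for a subunit of the hook of the yeast middle module, had 28.2 and 27.3 FPKM in Yy1 knockdown, against 24.6 and 19.3 FPKM in control libraries, with no overlap and a 95% interval of -0.09 to 0.76 (limma adjusted p = 0.624). Med4 had 54.5 and 56.7 FPKM in Yy1 knockdown, against 45.5 and 52.2 FPKM in control libraries, also without overlap (log2 fold change 0.19, limma adjusted p = 0.725). These last 2 genes, Med19 and Med4, were the only middle members separated on the higher side, where 21.8% of all rows lay. The log2 fold change of Med19 was 0.34 with all libraries and 0.17 without control replicate 2, and that of Med4 was 0.088 without control replicate 1. Med9 was the one separated on the lower side, where 18.9% of all rows lay. It stood at 8.18 and 7.39 FPKM in Yy1 knockdown and 10.2 and 8.47 FPKM in control libraries (log2 fold change -0.23, and -0.11 without control replicate 1, limma adjusted p = 0.735).

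Med7 and Med21, whose products form the hinge of the yeast middle module, were both low. Med7 stood at 1.59 and 1.51 FPKM in Yy1 knockdown and at 1.49 and 1.67 FPKM in control libraries, on 127 to 156 fragments. Med21 stood at 3.82 and 4.57 FPKM in Yy1 knockdown and at 4.95 and 4.39 FPKM in control libraries. Neither was separated between groups, and their 95% intervals were -0.63 to 0.60 and -0.63 to 0.38. Med31 had 17.4 and 15.0 FPKM in Yy1 knockdown, against 16.8 and 12.1 FPKM in control libraries. Med10, with 50 to 113 fragments, had 2.25 and 2.38 FPKM in Yy1 knockdown, against 3.81 and 1.85 FPKM in control libraries. On the log2 scale its control replicates differed most among the middle genes, and its 95% interval, -0.95 to 0.63, was the widest of all members of that module. Med26, whose product brings elongation factors to the polymerase, had 14.9 and 10.2 FPKM in Yy1 knockdown, against 16 and 13.2 FPKM in control libraries. The scaffold gene Med14, on the X chromosome from 12675368 to 12762594, had 25.3 and 16.6 FPKM in Yy1 knockdown, against 25.8 and 21.6 FPKM in control libraries. Knockdown replicate 1 of Med14 lay between the controls and replicate 2 below both, so its log2 fold change was -0.20 with all libraries and 0.10 without Yy1 knockdown replicate 2.

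The tail module, where activators dock, had 4 of 5 genes lower by group mean and a median log2 fold change of -0.33, and all 5 were separated between groups, 4 on the lower and 1 on the higher side, where 18.9% and 21.8% of all rows lay. None of them passed the test, with limma adjusted p from 0.535 to 0.894. Med25, whose product is bound by the activation domain of the viral activator VP16, stood at 4.22 and 3.44 FPKM in Yy1 knockdown, against 6.39 and 5.84 FPKM in control libraries. Both knockdown libraries were below both controls. It averaged 3.83 ± 0.555 FPKM in Yy1 knockdown and 6.12 ± 0.388 FPKM in control embryos (SD, n = 2 each), with a log2 fold change of -0.56 and a 95% interval of -1.06 to -0.06 (limma unadjusted p = 0.0332, adjusted p = 0.535). Med25 lies on chromosome 7 from 44876765 to 44892705, and its fragments numbered 1097 and 768 in Yy1 knockdown and 1679 and 1400 in control libraries.

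Med15, whose product binds SREBP activators of lipid synthesis genes, had 4.89 and 2.66 FPKM in Yy1 knockdown, against 6.07 and 5.36 FPKM in control libraries (log2 fold change -0.53, limma adjusted p = 0.633). Most of that difference came from knockdown replicate 2, and without it the log2 fold change was -0.19. The products of Med24, Med16 and Med23 bind each other within the tail. Med24 had 10.1 and 7.65 FPKM in Yy1 knockdown, against 11.8 and 10.8 FPKM in control libraries (log2 fold change -0.33, limma adjusted p = 0.669). Med16 had 3.62 and 2.67 FPKM in Yy1 knockdown, against 3.79 and 3.76 FPKM in control libraries (log2 fold change -0.21, limma adjusted p = 0.799). Without Yy1 knockdown replicate 2 the value was -0.15 for Med24 and -0.049 for Med16. In all 5 tail genes Yy1 knockdown replicate 2 was below Yy1 knockdown replicate 1 (median log2 difference -0.33), and in all 5 control replicate 2 was below control replicate 1 (median -0.11). Med23, whose product receives the mitogen-activated factor ELK1, was the 1 tail gene above both controls, at 14.7 and 14.5 FPKM in Yy1 knockdown and 14.2 and 13.2 FPKM in control libraries (log2 fold change 0.09, and 0.035 without control replicate 2, limma adjusted p = 0.894). Set against the control mean, the tail median was -0.15 in knockdown replicate 1 and -0.51 in replicate 2. With Med27, Med28, Med29 and Med30 counted in the tail, as some structural assignments do, 6 of 9 genes were lower and the median was -0.21. Of those 9 genes 4 were separated on the lower side and 2 on the higher side, where 18.9% and 21.8% of all rows lay. The other 3 overlapped between groups.

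In the kinase module 5 of 7 genes were lower by group mean and 2 higher; their median log2 fold change was -0.16, and 4 were separated between groups, all 4 on the lower side, where 18.9% of all rows lay. Med13, whose product links the kinase to the core, had the largest difference on the lower side of all members. It stood at 12.2 and 10.4 FPKM in Yy1 knockdown, against 18.6 and 17.7 FPKM in control libraries. The gap between the groups was wider than the spread within either. Med13 averaged 11.3 ± 1.29 FPKM in Yy1 knockdown and 18.1 ± 0.614 FPKM in control embryos (SD, n = 2 each), 1.61-fold lower. The log2 fold change of Med13 was -0.64 (standard error 0.16), with a 95% interval from -1.05 to -0.23 (limma unadjusted p = 0.00936, adjusted p = 0.500), and it was row 222 of 12120 by unadjusted p. Leaving out any library kept it between -0.75 and -0.54. The gene lies on chromosome 11 from 86267033 to 86357596 and overlaps the noncoding gene Brip1os over 37411 bases, which stood at 3.29 and 1.94 FPKM in Yy1 knockdown and 2.17 and 1.92 FPKM in control libraries. The counting of reads in overlapping genes is not stated in the sources used here.

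Med13l, the close relative of Med13, had 4.94 and 4.47 FPKM in Yy1 knockdown, against 6.19 and 5.28 FPKM in control libraries, and was also separated on the lower side (log2 fold change -0.24, and -0.14 without control replicate 1, limma adjusted p = 0.740). Med12, whose product activates the kinase through cyclin C, had 4.81 and 5.23 FPKM in Yy1 knockdown, against 5.41 and 3.95 FPKM in control libraries, with overlap. Its relative Med12l had 3.99 and 3.62 FPKM in Yy1 knockdown, against 4.85 and 5.05 FPKM in control libraries, without overlap (log2 fold change -0.31, limma adjusted p = 0.675). Med12l and Med13l were thus both separated on the lower side, where 18.9% of all rows lay. By control mean Med12l (4.95 FPKM) was not below Med12 (4.68 FPKM). The kinase gene Cdk8 had 11.5 and 8.42 FPKM in Yy1 knockdown, against 11.9 and 10.4 FPKM in control libraries, with overlap. Its relative Cdk19 had 4.29 and 4.58 FPKM in Yy1 knockdown, against 4.87 and 5.13 FPKM in control libraries, narrowly without overlap (log2 fold change -0.14, limma adjusted p = 0.846). Ccnc, the gene of the shared cyclin C, had 8.24 and 6.33 FPKM in Yy1 knockdown, against 6.68 and 4.37 FPKM in control libraries (log2 fold change 0.36, limma adjusted p = 0.705). The groups overlapped for Ccnc, and its log2 fold change was 0.62 without control replicate 1 and 0.099 without control replicate 2.

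Both members of each pair of related kinase module genes were expressed at the 8-cell stage, so ratios within a library could be formed, which need no scaling between libraries. Cdk8 was 2.68 and 1.84 times Cdk19 per length in the Yy1 knockdown libraries, against 2.44 and 2.04 times in the control libraries, and the control ratios lay between those of the knockdown. Med12 was 1.2 and 1.44 times Med12l in Yy1 knockdown, against 1.11 and 0.782 times in control libraries. Med13 was 2.47 and 2.32 times Med13l in Yy1 knockdown, against 3.00 and 3.35 times in control libraries. The ratios of Med12 to Med12l and of Med13 to Med13l did not overlap between groups, with log2 differences of 0.50 and -0.41. The exact two-sided permutation test gave p = 0.333 for each of these pairs and p = 1 for Cdk8 to Cdk19, and 0.333 is the smallest p that 2 against 2 libraries allow. Adjusted over the 3 pairs no value can be below that.

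**Figure D5:**
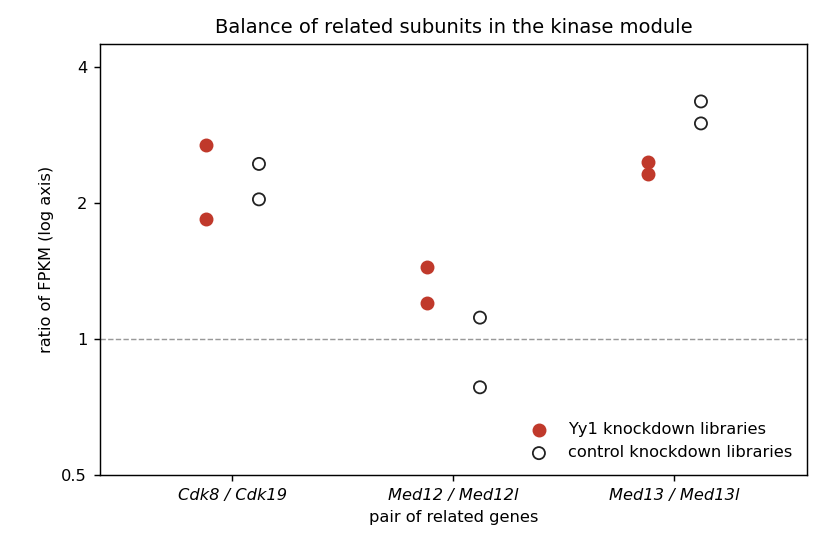
Ratio of FPKM within each library on a log axis (vertical) for 3 pairs of related genes of the kinase module (horizontal), in Yy1 knockdown libraries (filled) and control libraries (open). Cdk8 is 2.68 and 1.84 times Cdk19 in Yy1 knockdown and 2.44 and 2.04 times in control libraries, and the ratio of Med13 to Med13l is 2.47 and 2.32 in Yy1 knockdown and 3.00 and 3.35 in control libraries.

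Other parts of the transcription machinery were read from the same fit for context. limma called 0 members of each list at an adjusted p of 0.05, and 0% of all rows. Over all rows 8.9% had an unadjusted p under 0.05, 53.2% were higher by group mean and 46.8% lower. Of 12 RNA polymerase II subunit genes 7 were higher and 5 lower (median log2 fold change 0.021, 1 at an unadjusted p under 0.05), and of 18 general transcription factor genes 9 were higher and 9 lower (0.0097, 1 such gene). Of 13 measured TFIID subunit genes among 15 listed, 5 were higher and 8 lower (-0.04, 1 such gene), and of 19 measured pause release and elongation genes among 20, 6 were higher and 13 lower (-0.066, 3 such genes). The medians of these lists, like those of the Mediator head and middle, lay within 0.1 of that of all rows, 0.024. The genes of smallest p in them were Polr2f, Polr2j and Polr2d for the polymerase, all lower by group mean, and Gtf2a1, Gtf2f2 and Gtf2h2 for the general factors. Polr2f, for a subunit shared by the polymerases, had 77.1 and 75.2 FPKM in Yy1 knockdown, against 94.7 and 95.7 FPKM in control libraries (limma adjusted p = 0.556). Taf5, for a TFIID scaffold, had 17.6 and 18.4 FPKM in Yy1 knockdown, against 10.1 and 12.4 FPKM in control libraries (limma adjusted p = 0.502), with Taf2 and Taf4b next in its list. Supt4a, Nelfcd and Hexim1 were first in the elongation list, with log2 fold changes of 0.47, -0.51 and -0.59. Hexim1, whose product holds the elongation kinase in an inactive state, had 10.1 and 11 FPKM in Yy1 knockdown, against 13.6 and 19.8 FPKM in control libraries (limma adjusted p = 0.547).

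Of 8 factors described as copurifying with or acting beside Mediator, 3 were higher and 5 lower (median log2 fold change -0.039), and 2 had an unadjusted p under 0.05, which 8.9% of all rows had. Thrap3, first described as a protein of the Mediator-like thyroid hormone receptor coactivator and now known as a splicing factor, had 3.18 and 3.8 FPKM in Yy1 knockdown, against 13.7 and 18.4 FPKM in control libraries. Its log2 fold change of -1.91 was larger in size than that of every Mediator subunit (limma adjusted p = 0.237, limma-voom adjusted p = 0.00145). The cohesin gene Smc3 had 70.3 and 69.2 FPKM in Yy1 knockdown, against 52.2 and 55.4 FPKM in control libraries (limma adjusted p = 0.532), and Bclaf1, a relative of Thrap3, had 29.8 and 35.0 FPKM, against 22.7 and 27.7 FPKM (limma adjusted p = 0.616).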

How the data were processed

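Per the labels' protocols, total RNA of 8-cell embryos went into strand-specific SMART-Seq libraries. The authors deposited FPKM, 1 value per gene and library. Among the tools in the submitters' processing notes are HISAT2 2.2.1, featureCounts and Trim Galore 0.6.7, with mm10 as build and no roles. Annotation, strand setting and treatment of multimapped reads: not given in the sources used here.

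Groups come from the sample titles. Rows with a mean of at least 1 FPKM were tested on log2(FPKM + 1) with limma 3.58.1 in R 4.3.3 (group alone, mean-variance trend), with Benjamini-Hochberg adjustment over 12120 rows and a threshold of 0.05. Changes of low genes come out too small on this scale. Whole fragments were recovered from the steps between FPKM values (12120 of 12120 rows whole within 0.02 fragments). They are the smallest whole numbers, can be understated by a common factor, and count PCR copies too. The fit and the recovery were tested on simulated data. Pearson correlations of log2 values were 0.966 between Yy1 knockdown replicates, 0.969 between control replicates and 0.959 to 0.97 across groups. Coordinates and start regions are RefSeq's (GRCm38.p6, the assembly behind mm10).

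Members, modules, gene lists and tests were chosen with earlier results of these data known. Named are all members, Yy1, the 3 genes of smallest p in each other list, the leading marker of a list and, chosen after their values were seen, Sox2 and neighbouring genes.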

Additional observations from a re-analysis of the deposited data

How the results depend on the processing

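No Mediator gene was called in any of the 14 other fits or at an adjusted p of 0.1, and the lowest adjusted p of a member was 0.163 (Med11, protein-coding rows). Over all genes tested 0 were called with the settings of the report, 4 with a filter of 5 FPKM and 1 with robust eBayes. At an adjusted p of 0.1 the number was 3, with protein-coding rows 14 and with limma-voom on recovered fragments 13. Fewer rows were tested with the filter and with protein-coding rows, and both fits were run anew on those rows. The cause of the differing numbers was not tested. The median log2 fold change of the members, -0.13, was -0.022 with the 5 FPKM filter, which kept 21 of 33, and -0.149 to -0.00171 when a library was left out. A fit with a library left out has 1 library in a group and assumes that it varies like the other group.

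Med11, Med29, Med18, Med19, Med13, Med25 and 14 other members kept their direction in every fit run on them; 13 changed direction when a library was left out and in no other fit. Their log2 fold changes then ranged from -0.186 to 0.173 for Med6, -0.289 to 0.00573 for Med8, -0.367 to 0.0419 for Cdk8, -0.487 to 0.0962 for Med14, -0.147 to 0.353 for Med20, -0.292 to 0.107 for Med22, -0.468 to 0.0365 for Med26, -0.0679 to 0.037 for Med7, -0.538 to 0.218 for Med10, -0.121 to 0.0763 for Med28, -0.0907 to 0.282 for Med12, -0.0283 to 0.497 for Med27 and -0.0477 to 0.39 for Med31. The log2 ratio of Cdk8 to Cdk19 ranged from -0.277 to 0.266 and those of the other 2 pairs kept their direction. The module medians ranged from -0.102 to 0.173 for the head, -0.0477 to 0.0864 for the middle, -0.51 to -0.151 for the tail and -0.296 to -0.139 for the kinase module when a library was left out. With the 5 FPKM filter the median was 0.178 for the 6 middle genes left, against -0.0154 for all 9, and -0.123 for the 2 tail genes left, against -0.33 for all 5.

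Replicate numbers are shared between groups, but the labels do not say that they mark a shared batch, and deviations of same-numbered libraries correlated at 0.0994. With the replicate number as a block 0 genes and 0 members were called, with a lowest adjusted p of 0.456 among the members.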

Other observations

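Several Mediator genes lie next to, or overlap, another expressed gene. limma called none of these neighbours, but it called 0% of all rows. Rpl7a, a ribosomal protein gene 42 bases from Med22, had 124.8 and 141.3 FPKM in Yy1 knockdown and 119.4 and 141.7 FPKM in control libraries (log2 fold change 0.03). Bysl, a ribosome biogenesis gene 92 bases from Med20, had 33.2 and 35.0 FPKM in Yy1 knockdown and 31.9 and 34.4 FPKM in control libraries (log2 fold change 0.039). Paf1, an elongation complex gene 305 bases from Med29, had 28.0 and 35.0 FPKM in Yy1 knockdown and 31.0 and 36.4 FPKM in control libraries (log2 fold change -0.097), whereas Med29 itself had a log2 fold change of 0.43. Zdhhc5, a palmitoyltransferase gene that overlaps Med19 by 296 bases on the other strand, had 25.5 and 19.5 FPKM in Yy1 knockdown and 24.5 and 23.2 FPKM in control libraries (log2 fold change -0.092). Gm16570, a pseudogene that overlaps Med6 by 515 bases, differed more, with a log2 fold change of 0.51 (limma adjusted p = 0.598). It had 3.97 and 5.64 FPKM in Yy1 knockdown and 3.13 and 2.92 FPKM in control libraries. In all, 15 members overlap another RefSeq gene listed in the table, and for 5 of them that gene had a mean of at least 1 FPKM.

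The members lie on 17 chromosomes, with 7 of 33 on chromosome 11, among them Med11 and Med13, which differed in opposite directions. Med12 and Med14 are the 2 on the X chromosome. Their log2 fold changes were 0.10 and -0.20, and both overlapped between groups.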
